A study of Mus musculus with 6 samples.

Results

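The 49 genes described here encode the matrix of the pancreas and the cells that make most of it. They fall into 9 subgroups: fibrillar collagens, collagen VI, basement membrane collagens, laminin chains, nidogens and perlecan, matrix glycoproteins and proteoglycans, remodelling enzymes and their inhibitors, contractile and cytoskeletal markers, and a growth factor with receptors and a surface marker. Members were taken by gene symbol from a list that was drawn up with earlier results of these data known, although its rule names no measured value. All 49 were found among the 23337 symbols counted in each library. After a filter on low counts 48 of them were tested. Lama1, the laminin α1 chain of embryonic basement membranes, was too low to test, with 3, 3 and 5 counts in controls and 3, 0 and 3 in mutants.

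Whole pancreas was taken at postnatal day 7 from mice of the NMRI strain and sequenced as messenger RNA, with 3 libraries per group. Controls were Ptf1a cre/+, so that Cre recombinase was made from the Ptf1a locus, which is active in pancreas progenitors and acinar cells. Mutants were Ptf1a cre/+ and had in addition the transgene CAG-loxP-STOP-loxP-Prox1-LacZ, from which Cre removes a stop cassette. Prox1 and LacZ are then made from the CAG promoter in cells with a Cre history. Both groups carried the Ptf1a Cre allele. The design text speaks of control pools and single mutant pancreata, while the extraction protocol speaks of individual pancreata, so pooling and genotype cannot be told apart. Nothing else in the sources says how the 6 samples were related, and p-values measure the spread between them, which may be partly technical.

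Pancreatic epithelium rests on a basement membrane, a thin sheet in which laminin heterotrimers and collagen IV form networks that nidogens and perlecan link together. Between the lobules lies interstitial matrix of fibrillar collagens with small proteoglycans such as decorin and lumican. Pancreatic stellate cells and fibroblasts produce most of the interstitial matrix, and in injury and fibrosis stellate cells take on a contractile state marked by smooth muscle actin, with raised collagen, periostin and tissue inhibitors of metalloproteinases.

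Prox1 itself, the gene switched on by the transgene, was at 10.8, 7.84 and 9.13 counts per 1000000 library counts (CPM) in controls, against 25.5, 31.3 and 30.9 CPM in mutants, 3.18-fold higher (edgeR adjusted p = 0.000239). Total counts lay between 7304727 and 10773223 per library, and 13017 genes were tested. Control 1 stood apart in Xist, the transcript of the inactive X chromosome, with 7110 counts against at most 4 in the other 5 libraries, and in the Y-linked Ddx3y, with 0 counts against at least 415. Uty, Kdm5d and Eif2s3y, also Y-linked, had 0 counts in control 1 alone. By these transcripts control 1 was female and the other 5 libraries were male, so the controls were of mixed sex and the mutants all male. Control 1 and mutant 2 had the lowest totals, and most of the long matrix transcripts were low in both, as described further on.

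A single member passed the test, and it fell. Lamb3, the laminin β3 chain, was 8.56-fold lower in mutants, whereas none of the other 47 tested members was called in either direction. Over all genes tested, 1.51% were called lower and 0.545% higher at an edgeR adjusted p under 0.05. Among the members 1 of 48 was called lower and 0 higher, which is near that background. At an unadjusted p under 0.05 by edgeR there were 6 members (12.5% of those tested), 5 of them higher in mutants, beside 1662 of all 13017 genes tested (12.8%). DESeq2 called 1 member higher. The median log2 fold change of the 48 members, mutant over control, was 0.01, beside 0.00 over all genes tested. Positive values were found for 25 members and negative values for 23.

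The intervals show which changes the data would still allow. For the 47 members that were not called, the log2 fold change lay between -0.16 and 0.71. In 43 of them the whole 95% interval lay within 1 on the log2 scale in either direction, and in 20 within 0.5. The widest bound was 1.46, for Timp1, a scarce transcript. All 3 libraries of a group lay beyond all 3 of the other group in 6 tested members, Lamb3 below and Lum, Bgn, Postn, Tnc and Timp1 above, beside 19.0% of all genes tested. When only library totals set the scale, the median over all genes tested was 0.17 (log2) and 20 members changed sign, none of them called.

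**Figure D1:**
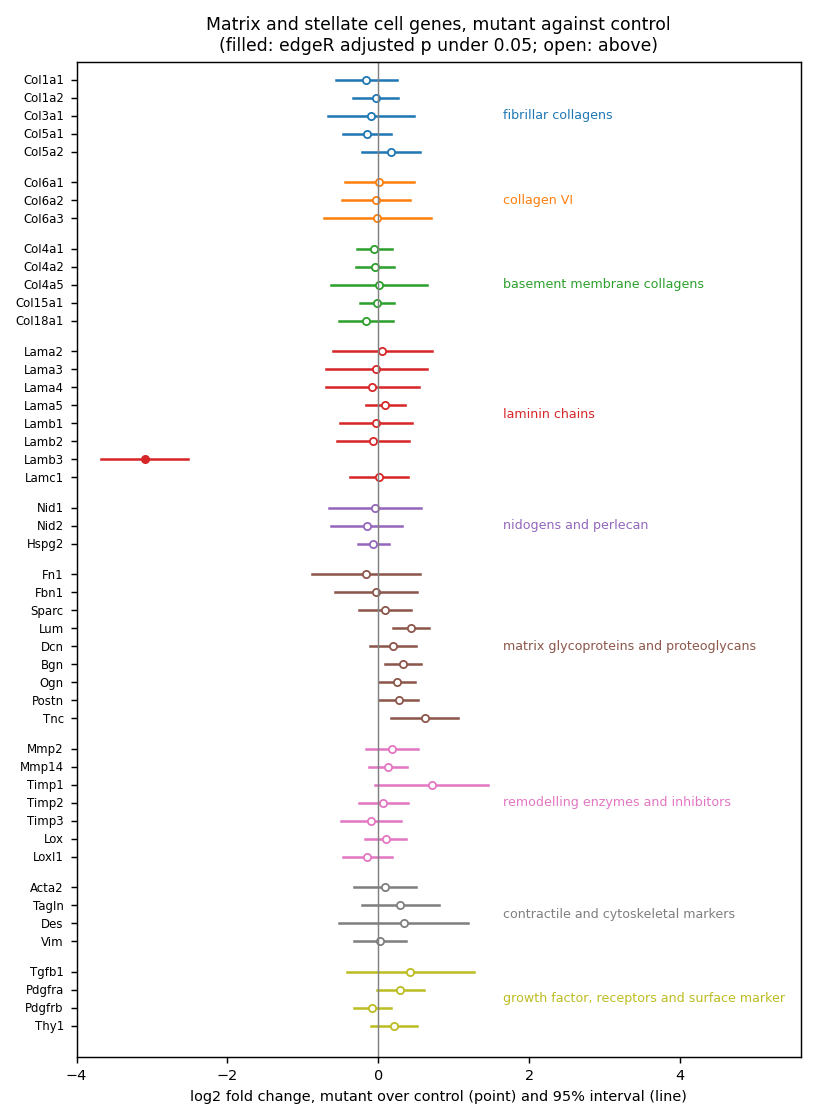
Log2 fold change of each of the 48 tested members, mutant over control (horizontal axis, points), with its 95% interval (lines), arranged by subgroup and coloured by it. The filled point marks Lamb3, at -3.10 with an interval from -3.68 to -2.52; all other points are open, lie between -0.16 and 0.71 and were not called.

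Lamb3 lies on chromosome 1 of GRCm38 (chr1:193207699-193343878, plus strand; ENSMUSG00000026639.18) and is protein-coding. Its product joins the laminin α3 chain, encoded by Lama3, in a heterotrimer that anchors epithelia to the basement membrane through hemidesmosomes. The 250 bases before its RefSeq start (chr1:193301744-193301993, plus strand) are shown because Lamb3 carries the only call among the members. Those of Col7a1 (chr9:108953336-108953585, plus strand), the anchoring fibril collagen, are shown as well. Col7a1 is not a member but was called lower among 15 other collagens tested. A relation between the changes of the 2 genes was not tested. Sequences are from RefSeq on GRCm38.p6. Capitals mark matches, on either strand, to the RBPJ motif TGGGAA and the E-box CANNTG. The AP-1 motif, TGANTCA, was searched as well.
Lamb3: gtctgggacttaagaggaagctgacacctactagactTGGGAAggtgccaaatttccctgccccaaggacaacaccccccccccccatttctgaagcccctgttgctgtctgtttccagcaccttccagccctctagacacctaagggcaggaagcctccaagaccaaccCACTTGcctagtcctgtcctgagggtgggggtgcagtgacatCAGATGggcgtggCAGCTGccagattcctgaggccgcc
Col7a1: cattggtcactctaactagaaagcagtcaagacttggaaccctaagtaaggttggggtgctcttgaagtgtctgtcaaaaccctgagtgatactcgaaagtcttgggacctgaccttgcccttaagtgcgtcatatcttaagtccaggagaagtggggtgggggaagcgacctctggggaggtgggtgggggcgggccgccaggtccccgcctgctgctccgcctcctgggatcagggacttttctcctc

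The Lamb3 window held 1 RBPJ match, at -213 to -208 from the start, and 3 E-boxes, which begin at -80, -38 and -25. The Col7a1 window held no match to any of the 3 motifs. Among 32851 mouse promoter windows of the same length, 21.6% held the RBPJ motif, 66.2% an E-box and 6.7% the AP-1 motif. These are matches of letters in one window only, and Lamb3 has 2 windows in the RefSeq table. The matches do not overlap one another.

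In controls Lamb3 was at 12.3, 15.4 and 12.8 CPM, and in mutants at 2.09, 0.812 and 1.70 CPM. The groups lay far apart: the highest mutant stayed well below the lowest control. The means were 13.5 ± 1.63 CPM (SD, n = 3) and 1.53 ± 0.656 CPM, behind which stood 82, 139 and 133 counts in controls and 22, 7 and 17 in mutants. The log2 fold change was -3.10 ± 0.26 (SE) with an edgeR adjusted p = 0.000168, and the gene was called in each of the 15 alternative settings. No stretch of 50 bases in its principal transcript occurs in the transcripts of another gene, and no antisense gene overlaps its exons. Its other transcripts were not searched.

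Lama3, the laminin α3 chain with which the β3 chain assembles, was looked at after its values were known. It was at 2.56, 6.30 and 6.63 CPM in controls, against 5.24, 4.87 and 5.49 CPM in mutants. The mutants lay inside the control range, in which control 1 was low. Its log2 fold change was -0.02, with an interval from -0.69 to 0.64 (edgeR adjusted p = 0.990).

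Chain ratios within a library need no scaling between libraries. The ratio of Lamb3 to Lama3 counts was 4.82, 2.44 and 1.93 in controls and 0.400, 0.167 and 0.309 in mutants, 10.3-fold lower. Each control held more Lamb3 than Lama3 counts, and each mutant held fewer. Against Lamb1, the laminin β1 chain of most basement membranes, Lamb3 was 9.33-fold lower.

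In the exact two-sided permutation test both ratios had p = 0.1, the smallest value that 3 libraries against 3 allow. Adjustment over the 2 ratios tested cannot lower it. Both ratios rest on Lamb3, whose groups lay far apart, so the test adds no support beyond the call of Lamb3.

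**Figure D2:**
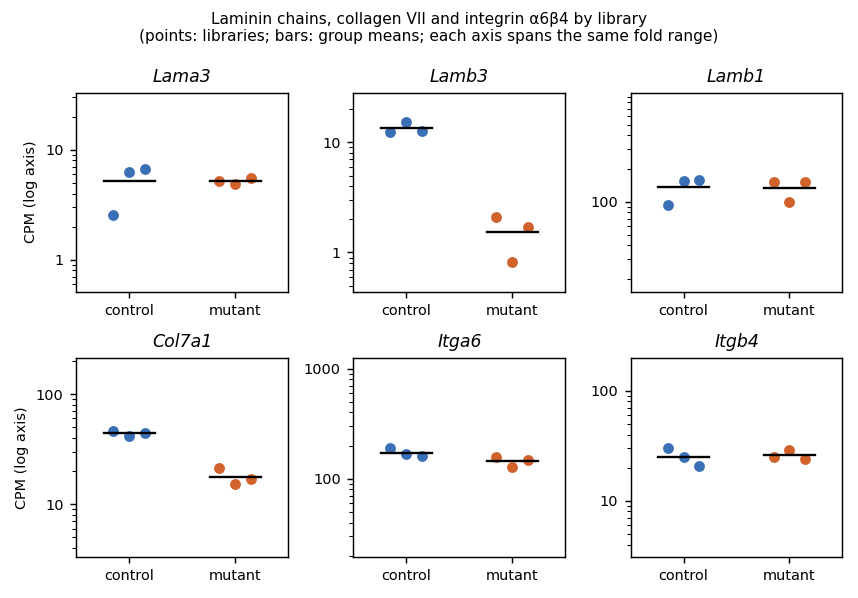
CPM per library (points, logarithmic axes that span the same fold range) and group means (bars) of the laminin chains Lama3, Lamb3 and Lamb1, of Col7a1 and of the integrin subunits Itga6 and Itgb4, in 3 controls and 3 mutants. Lamb3 lies between 12.3 and 15.4 CPM in controls and no higher than 2.09 CPM in mutants, Col7a1 is also lower in all mutants, and Lama3, Lamb1 and Itgb4 overlap between groups.

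Genes around Lamb3 were examined for a shared difference. Within 200 kb of the gene lie 8 other protein-coding genes, of which 7 were tested and 0 were called. Their log2 fold changes ran from -0.48 for G0s2 to 0.54 for Traf3ip3, and the smallest edgeR adjusted p among them was 0.559. Around Col7a1 there were 16 such genes, of which 11 were tested and 0 called, with values from -0.57 to 0.31 and a smallest edgeR adjusted p of 0.153.

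Markers of the duct, an epithelium in which Lamb3 can be made, were not called. The 8 duct genes summed to between 743 and 837 CPM in controls and between 520 and 736 CPM in mutants, without overlap, but 0 of the 8 passed the test. Without Spp1, the secreted protein osteopontin and the most abundant of them, the sums were 355, 471 and 463 CPM in controls, against 413, 275 and 429 CPM in mutants, and overlapped. Krt19, a duct keratin that mesothelium also makes, was at 49.8, 74.0 and 68.2 CPM in controls, against 42.4, 37.0 and 48.7 CPM in mutants (log2 fold change -0.59, edgeR adjusted p = 0.103), the lowest log2 fold change of the list. Cftr, the chloride channel of duct cells, lay the other way, at 2.56, 4.31 and 2.40 CPM in controls, against 4.38, 5.22 and 6.39 CPM in mutants, without overlap (0.78, edgeR adjusted p = 0.264). For Epcam and Krt7, which encode an epithelial adhesion protein and a keratin, the values were -0.01 and -0.16. In bulk tissue fewer cells of a type and less RNA per cell cannot be told apart, and the part of duct cell content in the Lamb3 difference was not tested.

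None of the other tested laminin chains was called. Of the 8 laminin genes tested, 3 had a positive and 5 a negative log2 fold change, with a median of -0.03. Lamb1 was at 94.1, 153 and 158 CPM in controls, beside 150, 98.5 and 150 CPM in mutants. Control 1 and mutant 2 were low and the other 4 libraries lay close together.

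Lama5, the α5 chain of mature epithelial and vascular basement membranes, was at 29.8, 37.9 and 36.8 CPM in controls, against 37.8, 35.0 and 39.1 CPM in mutants. All mutants lay above control 1 and overlapped the other controls, and the log2 fold change was 0.10, with an interval from -0.16 to 0.35. Lamc1, the γ1 chain that most laminins share, had a mean of 125 CPM in controls, beside 126 CPM in mutants. Lama2 and Lama4, the α chains of mesenchymal and vascular basement membranes, had log2 fold changes of 0.05 and -0.08.

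Per kilobase of principal transcript, Lamb1 was the highest laminin gene, at a mean of 24.4 CPM per kb in controls and 23.9 in mutants, followed by Lamc1 at 16.4 and 16.5 and Lama4 at 15.7 and 14.9. Lamc1 and Lama4 did not differ beyond the spread of the libraries. Lamb3 was at 2.77 CPM per kb in controls, below Lama5 at 3.06, and at 0.315 in mutants. In mutants it was thus below Lama3, at 0.493 CPM per kb, the lowest of the other tested members on this scale.

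The collagens of the basement membrane gave no call. Col4a1, a collagen IV chain, was at 207, 201 and 183 CPM in controls, against 181, 187 and 201 CPM in mutants. The groups overlapped, and the log2 fold change was -0.06, with an interval from -0.29 to 0.18. Its partner chain Col4a2 had a mean of 120 CPM in controls, beside 117 CPM in mutants, and the ratio of Col4a1 to Col4a2 counts averaged 1.63 ± 0.0764 and 1.64 ± 0.222 (SD, n = 3).

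Col18a1, a heparan sulfate collagen whose end fragment is endostatin, was at 29.0, 38.2 and 47.1 CPM in controls, against 36.9, 31.1 and 34.8 CPM in mutants. The mutants lay inside the control range (log2 fold change -0.16, edgeR adjusted p = 0.761). Col15a1 and Col4a5 had log2 fold changes of -0.02 and 0.01. Summed over the 5 genes, basement membrane collagens held 436, 448 and 458 CPM in controls, beside 437, 395 and 464 CPM in mutants.

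Nidogens and perlecan, which link the laminin and collagen IV networks, gave no call. Nid1, the most abundant of them, was at 176, 309 and 341 CPM in controls, against 300, 170 and 329 CPM in mutants. One library in each group, control 1 and mutant 2, was low by nearly the same factor. Hspg2, the perlecan core protein, was at 65.3, 69.1 and 70.7 CPM in controls, beside 65.7, 68.3 and 62.2 CPM in mutants, with an interval of its log2 fold change from -0.27 to 0.14.

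Hspg2 has the longest principal transcript of the members, 14.2 kb, and its 6 libraries lay in a narrow band. Nid2 was at 40.6, 59.7 and 82.2 CPM in controls, against 60.7, 47.8 and 56.4 CPM in mutants, with the mutants inside the control range. Over the 17 basement membrane members together, 16 were tested and 1 was called lower, Lamb3, with a median log2 fold change of -0.04.

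Fibrillar collagens, the bulk of interstitial matrix, gave no call. Col3a1, the collagen III chain, had the highest level per kilobase of all members, with means of 499 CPM per kb in controls and 466 in mutants. Per library it was at 1865, 2993 and 3467 CPM in controls, beside 3160, 1776 and 2848 CPM in mutants. Both groups covered nearly the same range, and the log2 fold change was -0.10, with an interval from -0.67 to 0.48.

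Col5a1 and Col5a2, the collagen V chains that set the width of fibrils, lay on opposite sides of 0 within their error. Col5a1 was at 75.8, 108 and 111 CPM in controls, against 94.8, 84.6 and 87.5 CPM in mutants (log2 fold change -0.15, edgeR adjusted p = 0.752). Col5a2 was at 137, 191 and 203 CPM in controls, beside 231, 159 and 208 CPM in mutants (0.17, edgeR adjusted p = 0.773). Groups overlapped in both genes.

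Col1a1 and Col1a2, the chains of collagen I, had means of 231 and 421 CPM in controls, against 207 and 411 CPM in mutants. The ratio of Col1a1 to Col1a2 counts averaged 0.546 ± 0.0501 in controls and 0.503 ± 0.0771 in mutants (SD, n = 3), a difference within the spread of the libraries. The fibrillar collagens summed to 2632, 3940 and 4534 CPM in controls, beside 4183, 2632 and 3690 CPM in mutants.

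Basement membrane members summed to 0.406, 0.366 and 0.337 of the fibrillar collagen sum in controls and to 0.336, 0.393 and 0.394 in mutants. The balance of the 2 kinds of matrix therefore overlapped between the groups. Collagen VI, which forms beaded microfibrils around cells, had a median log2 fold change of -0.01 over its 3 chains. Col6a1 was at 122, 199 and 215 CPM in controls, against 202, 144 and 197 CPM in mutants, and Col6a2 at 122, 185 and 199 CPM and 191, 126 and 180 CPM. The lowest library of each group was again control 1 and mutant 2, in both chains.

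**Figure D3:**
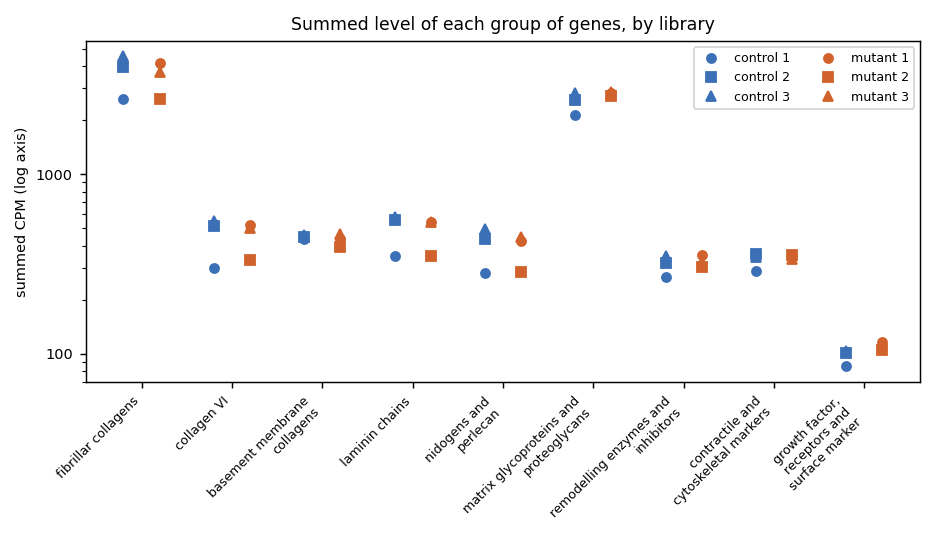
Summed CPM of each of the 9 subgroups per library (logarithmic axis), with blue symbols for the 3 controls and orange symbols for the 3 mutants and 1 symbol shape per library number. Fibrillar collagens, from 2632 to 4534 CPM in controls and 2632 to 4183 CPM in mutants, hold the highest sum in every library but mutant 2. Glycoproteins and proteoglycans, from 2137 to 2846 and 2725 to 2875 CPM, are the highest in mutant 2 and the next in the others.

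Matrix glycoproteins and proteoglycans had the highest median among the matrix subgroups, 0.25 on the log2 scale beside 0.00 over all genes tested, with 7 of 9 values positive and 0 called by edgeR. At an unadjusted p under 0.05 there were 5 of these 9 genes, Lum, Bgn, Ogn, Postn and Tnc, beside 12.8% of all genes tested, and DESeq2 called Lum. Lum encodes lumican, a small proteoglycan that spaces collagen fibrils. It was at 129, 106 and 123 CPM in controls, beside 156, 164 and 163 CPM in mutants. Every mutant lay above every control, and mutants were close together.

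The log2 fold change of Lum was 0.43 ± 0.10 (SE), with an interval from 0.20 to 0.67 and an edgeR adjusted p = 0.080. With DESeq2 the adjusted p was 0.0061 at the same fold change, and with library totals alone as scaling it was 0.0185 in edgeR. It was 0.0234 without control 1 and mutant 2. Lum was thus on the side of a call in 3 settings and short of it in the other 12.

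Tnc, the glycoprotein tenascin C of growing and injured tissue, was at 6.32, 4.42 and 5.09 CPM in controls, against 7.33, 9.51 and 7.29 CPM in mutants. The groups did not overlap, and the log2 fold change was 0.62, with an interval from 0.17 to 1.06 (edgeR adjusted p = 0.204). Bgn, biglycan, was at 83.5, 88.2 and 93.8 CPM in controls, beside 124, 105 and 104 CPM in mutants, without overlap (0.33, edgeR adjusted p = 0.204). Postn, the stellate cell product periostin, was at 526, 522 and 489 CPM in controls, against 557, 651 and 643 CPM in mutants, also without overlap (0.27, edgeR adjusted p = 0.381).

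Dcn, decorin, the most abundant of the small proteoglycans per kilobase, was at 473, 543 and 640 CPM in controls, beside 596, 674 and 631 CPM in mutants. Control 3 lay among the mutants, and the log2 fold change was 0.20, with an interval from -0.11 to 0.51. Sparc, a collagen-binding glycoprotein that stood at the highest level per kilobase of this subgroup in controls, was at 603, 825 and 857 CPM in controls, against 863, 742 and 827 CPM in mutants. Apart from the low control 1 its groups overlapped (0.09, edgeR adjusted p = 0.879).

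Fn1 and Fbn1, fibronectin and fibrillin of long matrix fibres, were the 2 members of the subgroup with negative log2 fold changes, -0.16 and -0.03, which turned to 0.28 for Fn1 without control 3 and up to 0.21 for Fbn1 without control 2, control 3 or mutant 2. Fn1 varied widely among controls, at 106, 215 and 335 CPM, beside 234, 174 and 179 CPM in mutants. Gene Gm9913 on the opposite strand overlaps 20.1% of the exon bases of Fbn1, and reads from the 2 genes cannot be separated without a stated strand setting. Relative to fibrillar collagens, the sum of Lum, Dcn, Bgn and Ogn was 0.287, 0.204 and 0.206 in controls and 0.228, 0.390 and 0.269 in mutants, ranges that overlap.

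**Figure D4:**
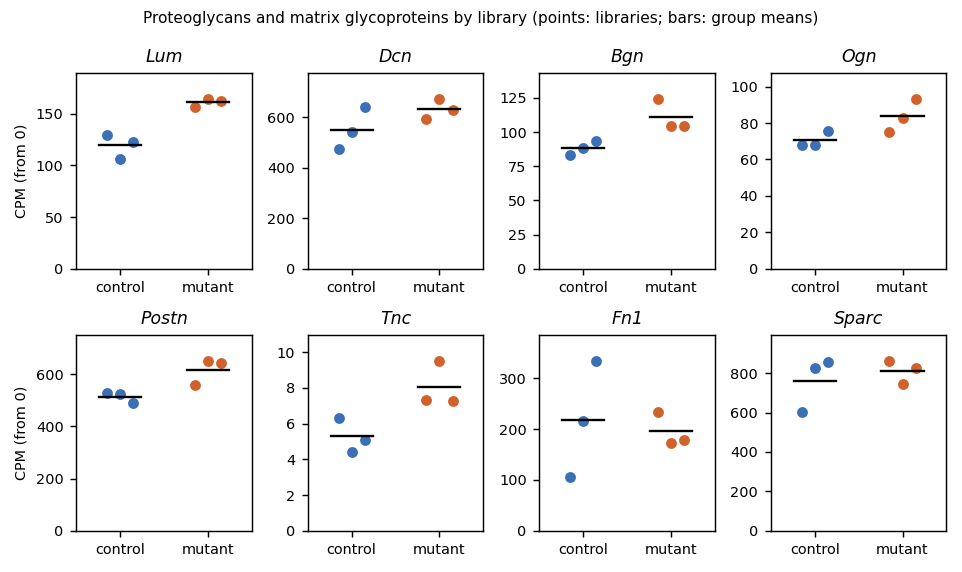
CPM per library (points, linear axes from 0) and group means (bars) of 8 of the 9 matrix glycoproteins and proteoglycans, all but Fbn1, in 3 controls and 3 mutants. In Lum, Bgn, Postn and Tnc all mutants lie above all controls, with none called by edgeR, and the other 4 genes shown overlap.

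Remodelling enzymes and inhibitors gave no call, with a median log2 fold change of 0.10 over 7 genes. Timp1, an inhibitor of metalloproteinases that is induced in activated stellate cells, was at 1.05, 1.10 and 1.35 CPM in controls, beside 1.43, 2.32 and 2.10 CPM in mutants. The groups did not overlap but all levels were low, and the log2 fold change of 0.71 had an interval from -0.04 to 1.46 (edgeR adjusted p = 0.425). Mmp2, a gelatinase made by fibroblasts, was at 52.0, 73.1 and 70.2 CPM in controls, against 78.6, 60.6 and 82.4 CPM in mutants, with overlap (0.18, edgeR adjusted p = 0.710).

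Timp2, which takes part in the activation of Mmp2 and was the highest of the subgroup per kilobase, was at 72.8, 78.2 and 107 CPM in controls, beside 96.0, 92.5 and 83.0 CPM in mutants. Mutants lay inside the control range (0.07, edgeR adjusted p = 0.910). Mmp14, the membrane protease that activates Mmp2, had a log2 fold change of 0.13. Timp3, an inhibitor bound to matrix, had -0.10, and 21.3% of its exon bases overlap Syn3 on the opposite strand. For the collagen cross-linking oxidases Lox and Loxl1 the values were 0.10 and -0.14.

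Contractile and cytoskeletal markers, by which activated stellate cells are recognised, gave no call either. Acta2, smooth muscle actin, was at 66.2, 51.6 and 38.4 CPM in controls, against 48.4, 64.9 and 52.1 CPM in mutants, with the mutants inside the control range and an interval of the log2 fold change from -0.32 to 0.50. Tagln, a calponin-related protein of contractile cells, was at 31.6, 22.1 and 17.0 CPM in controls, beside 23.7, 37.0 and 25.0 CPM in mutants, with overlap (0.29, edgeR adjusted p = 0.678). Genes on the opposite strand overlap 67.9% of the exon bases of Tagln, Pcsk7 among them.

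Acta2 and Tagln were highest in control 1 and mutant 2, the reverse of the long matrix genes. Des, desmin, an intermediate filament of muscle and stellate cells, was at 2.56, 4.64 and 9.23 CPM in controls, against 6.09, 9.75 and 5.79 CPM in mutants, with a spread that left an interval from -0.51 to 1.19. Vim, vimentin, the intermediate filament of mesenchymal cells, was the highest of the subgroup per kilobase, at 190, 283 and 283 CPM in controls, beside 270, 244 and 255 CPM in mutants. Its groups overlapped, and the log2 fold change was 0.02.

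The receptors and surface marker of stellate cells and fibroblasts gave no call. Pdgfra, a receptor for platelet-derived growth factor on fibroblasts, was at 43.3, 54.5 and 59.6 CPM in controls, against 69.7, 54.8 and 68.7 CPM in mutants. Mutant 2 lay among the controls and the other mutants above them (0.29, edgeR adjusted p = 0.429). Thy1, a surface glycoprotein of fibroblasts, was at 15.5, 17.3 and 17.1 CPM in controls, beside 20.9, 20.9 and 16.0 CPM in mutants, with overlap (0.20, edgeR adjusted p = 0.613).

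Pdgfrb, the related receptor of stellate cells and pericytes, had means of 24.1 and 22.8 CPM, with an interval of its log2 fold change from -0.32 to 0.16. Tgfb1, the growth factor that drives matrix synthesis, was at 3.46, 3.54 and 3.27 CPM in controls, against 2.86, 7.89 and 3.19 CPM in mutants. Mutant 2 stood above all other libraries and the other mutants below all controls, so that the log2 fold change was 0.42 with mutant 2 and -0.17 without it. Ptprc, the pan-leukocyte surface protein, was likewise high in mutant 2, at 57.0 CPM, beside 5.05 and 4.69 CPM in the other mutants and 5.26, 11.6 and 14.4 CPM in controls. The part of leukocytes in the Tgfb1 value was not tested.

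Genes of the same pathways outside the 49 were taken from 8 lists with 152 genes, of which 136 were tested. Among these 136, 0 were called higher and 3 lower, beside 0.545% and 1.51% of all genes tested. The lists were thus near that background. Col7a1 was 1 of 15 other collagens tested. It was at 46.6, 41.5 and 44.2 CPM in controls, beside 21.3, 15.2 and 16.9 CPM in mutants, 2.47-fold lower without overlap (edgeR adjusted p = 0.000613). Collagen VII forms the fibrils that tie the epithelial anchoring laminin to the stroma beneath.

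Ntn1, a laminin-related secreted protein, was 1 of 16 other basement membrane genes tested, at 79.7, 65.9 and 64.8 CPM in controls, against 32.1, 36.9 and 43.3 CPM in mutants. All mutants lay below all controls, 1.87-fold on average (edgeR adjusted p = 0.00602). Ltbp3, which holds latent TGF-β in the matrix, was 1 of 17 TGF-β pathway genes tested, at 40.6, 42.1 and 45.6 CPM in controls, beside 31.0, 28.0 and 29.6 CPM in mutants. It was 1.45-fold lower without overlap (edgeR adjusted p = 0.0202). It missed the threshold when library totals alone set the scale (edgeR adjusted p = 0.104). The same held with the replicate number as a block (0.0634) and in the fits without control 2, control 3, mutant 1 or mutant 3 (0.0691 to 0.105).

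The other 5 lists held no called gene. Among 22 genes of collagen synthesis and processing the smallest edgeR adjusted p was that of Leprel4, a collagen-modifying endoplasmic reticulum protein, at 0.465. Among 23 matrix receptors it was that of Sdc1, the epithelial proteoglycan syndecan (log2 fold change 0.55, edgeR adjusted p = 0.0998). Among 19 other proteases and inhibitors it was that of Plau, the urokinase (0.79, edgeR adjusted p = 0.0738). The 4 ligands of the PDGF receptors were led by Pdgfa (0.37, edgeR adjusted p = 0.258), and 20 microfibril, elastic and proteoglycan genes by Aspn, asporin (0.41, edgeR adjusted p = 0.164).

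The integrin receptor of the epithelial anchoring laminin was not called in either subunit. Itga6 was at 192, 166 and 160 CPM in controls, against 158, 128 and 148 CPM in mutants, all mutants below all controls (log2 fold change -0.26, edgeR adjusted p = 0.418). Itgb4 was at 29.9, 24.7 and 20.6 CPM in controls, beside 25.0, 29.1 and 23.9 CPM in mutants, with overlap (0.06, edgeR adjusted p = 0.921).

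Markers of quiescent stellate cells were scarce. Gfap stayed at or below 0.66 CPM and Lrat, which makes retinyl esters, at or below 1.16 CPM, and neither could be tested. Of 6 genes of that list tested, 1 was called higher, beside 0.545% of all genes tested. This was Reln, a secreted glycoprotein that was singled out after its values were seen. It was at 3.91, 2.76 and 3.94 CPM in controls, against 13.0, 6.96 and 9.38 CPM in mutants, without overlap. The log2 fold change was 1.48 ± 0.26 (SE) with an edgeR adjusted p = 0.0174, but it missed the threshold in 5 of the 6 fits that left out a library, all but that without mutant 2 (0.0561 to 0.102).

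Sums of markers of other cell types were set beside the members. Pericyte and smooth muscle markers summed to between 144 and 150 CPM in controls and between 150 and 153 CPM in mutants, with 0 of 9 called. Blood endothelial markers lay between 314 and 328 CPM and between 314 and 341 CPM, with 0 of 10 called. Mesothelial markers ranged from 134 to 241 CPM in controls and from 139 to 166 CPM in mutants, with 0 of 6 called. Their log2 fold changes were negative in 5 of the 6 and positive in 1, with a median of -0.33. Macrophage markers ranged from 261 to 321 CPM and from 320 to 475 CPM, with 2 of 11 called higher and 1 lower. Over all genes tested, 0.545% were called higher and 1.51% lower. The macrophage log2 fold changes were positive in 9 and negative in 2, with a median of 0.53. Adipocyte markers ranged from 73 to 139 CPM and from 43 to 60 CPM, with 1 of 5 called lower. Their values were negative in 4 and positive in 1, with a median of -2.57. Acinar markers ranged from 343000 to 378700 CPM in controls and from 285300 to 343600 CPM in mutants, with 1 of 11 called lower. Of these 11, 8 had negative and 3 positive log2 fold changes, with a median of -0.22. Erythroid markers ranged from 175 to 683 CPM and from 109 to 245 CPM, with 0 of 5 called, all 5 negative and a median of -1.75. For Schwann and nerve markers the ranges were 73 to 76 CPM and 66 to 80 CPM, with 0 of 8 called. Median log2 fold changes were 0.19 for these, 0.02 for pericyte and smooth muscle markers and 0.04 for endothelial markers. The part of these cell types in the member values was not tested.

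Within the groups the members varied together. Control 1 was the lowest control in 37 of 48 members and mutant 2 the lowest mutant in 29, and both held in 26 members, or 54.2%, beside 16.7% of all genes tested. This was noticed in the values and is given as a description. Among the 24 members whose principal transcript is at least 5 kb long it held in 17, and among the 24 shorter ones in 9.

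The median log2 level of control 1 against the mean of controls 2 and 3 was -0.52 in the long members and -0.27 in the short ones. For mutant 2 against mutants 1 and 3 the medians were -0.34 and -0.07. Across the 48 members the deviations of the 2 libraries had a Pearson r of 0.495 (Spearman rho 0.621), and log2 transcript length had an r of -0.417 with control 1 and -0.529 with mutant 2. Genes are not independent replicates, and all members share these 6 libraries.

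Col6a3, Lama2, Lama4 and Nid1 were low by about the same amount in both libraries. Col6a3, at 58.0, 128 and 133 CPM in controls, beside 129, 63.0 and 124 CPM in mutants, shows the pattern plainly. Lum and Postn, by contrast, were not low in either library. RNA quality, cell content and the sex of control 1 as sources of this pattern were not tested. Without control 1 and mutant 2 the members called were Lamb3, lower, and Lum, higher, and over all genes 157 were called higher and 327 lower.

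**Figure D5:**
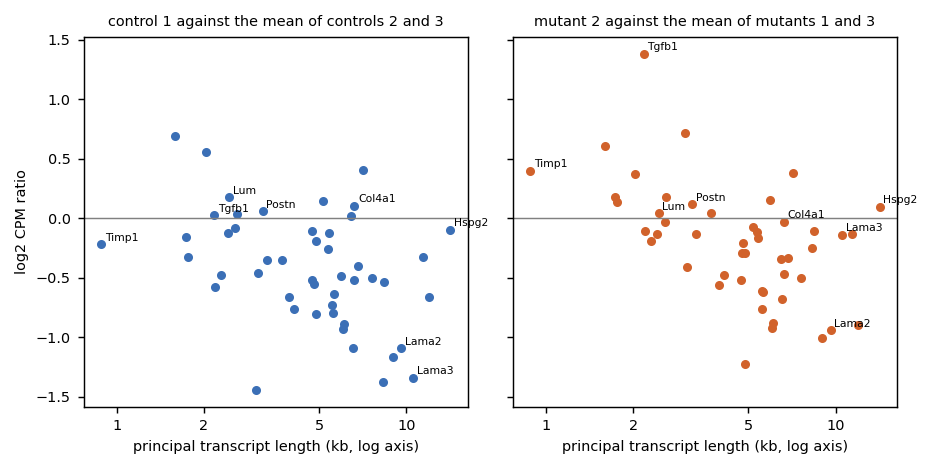
Log2 level of control 1 against the mean of controls 2 and 3 (left) and of mutant 2 against the mean of mutants 1 and 3 (right), for each of the 48 tested members, against the length of its principal transcript in kb (logarithmic axis). Longer members tend to lie lower in both panels, with r of -0.417 and -0.529 across genes.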

How the data were processed

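RNA was sequenced from 3 control and 3 mutant samples of whole pancreas, grouped and numbered by the sample titles. The deposited values are raw whole-number counts, given by gene symbol for each library. The submitters' processing notes name the build mm10 and the tools cutadapt 1.13, HTSeq 0.6.1p1, STAR and DESeq2, but neither their roles nor their order. The annotation, the strand setting and the handling of multiply matching reads were not given in the sources used here. The authors' counts were tested with the edgeR 4.0.16 quasi-likelihood test in R 4.3.3, with TMM scaling, filterByExpr and no covariate, and p-values were adjusted (Benjamini-Hochberg, 0.05) over all 13017 genes tested. Standard errors are the log2 fold change over the square root of F, and CPM use TMM-scaled totals. Total counts of 7304727 to 10773223 limit the precision of genes near 1 CPM. Levels per kb use the principal transcript of GENCODE M21 on GRCm38, which mm10 denotes. RefSeq promoter windows matched 33 of 49 members. The ratios of Lamb3 to Lama3 and to Lamb1 were compared by exact permutation, and the other ratios were not tested.

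The members and lists were chosen with earlier results of these data known. By rule, values per library were given for called members, for the 2 with the smallest adjusted p in each subgroup and for its highest per kb; genes outside it were chosen after their values were seen, including Lama3, Itga6, Itgb4, Ptprc, Reln, Bgn, Postn, Dcn, Fn1, Tgfb1, Acta2, Krt19, Spp1, Cftr, Epcam, Krt7, Col4a2 and Col6a3. Alternatives were other scalings and filters, DESeq2 1.42.0, robust dispersion, a replicate block, and fits without each library or without control 1 and mutant 2, the last chosen after seeing the data. The script was tested on simulated data. Libraries of a group differed far beyond sampling noise (chi-square per degree of freedom of 5.83 to 20.5) and were kept as separate replicates.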

Additional observations from a re-analysis of the deposited data

How the results depend on the processing

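Lamb3 was called lower in all 15 alternatives, with a log2 fold change of -3.39 to -2.82 when 1 library was left out. With library totals alone as scaling, 20 members changed sign, and 190 genes were called higher and 130 lower, so that 59.4% of calls were higher against 26.5%. Without control 1 and mutant 2 the calls were 157 and 327, and with 1 library left out 27 to 99 and 98 to 202. Lum was the 1 member called higher with library totals alone, with DESeq2 and without control 1 and mutant 2. With library totals alone the log2 fold changes turned positive for Col5a1 (0.016), Col3a1 (0.053), Col6a2 (0.13), Col4a1 (0.11), Lamb1 (0.12), Nid2 (0.0030), Hspg2 (0.10), Nid1 (0.10) and Lama3 (0.13). The median and the log2 fold of the summed CPM moved to 0.41 and 0.32 for glycoproteins and proteoglycans, 0.26 and 0.23 for remodelling genes, 0.37 and 0.23 for contractile markers and 0.41 and 0.37 for the growth factor subgroup. The summed basement membrane collagens moved to 0.12. Without control 1 and mutant 2 the values were -0.054 for Col6a1, -0.055 for Timp2, -0.24 for Des and -0.11 for Vim, and the growth factor subgroup median was 0.017. That median lay between 0.065 and 0.31 with 1 library left out. The same fits turned the sign of Col18a1 (-0.32 to 0.023), Col3a1 (-0.32 to 0.12), Col6a1 (-0.20 to 0.17), Col6a2 (-0.21 to 0.14), Lama3 (-0.31 to 0.20), Lamb1 (-0.23 to 0.15), Nid1 (-0.29 to 0.20), Nid2 (-0.37 to 0.13), Sparc (-0.052 to 0.18), Timp2 (-0.039 to 0.26) and Vim (-0.14 to 0.11). Of the 23 other members 14 also turned in some of them, Fn1 (-0.49 to 0.28) and Tgfb1 (-0.17 to 0.68) over the widest ranges. None of these genes was called in any of them. Apart from the constructions named, the cause was not tested. Replicate numbers did not pair the samples (correlation of deviations 0.063, 0.007 and -0.057). With the replicate block Lamb3 had -3.11 (edgeR adjusted p = 0.000777), Ltbp3 lost its call and Lama3 was at 0.049. Depth limits Timp1, Lama1, Gfap and Lrat.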
